A study of Mus musculus with 96 samples.

Results

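Cortical microRNA levels were compared between Q140 and Q92 mice at 6 months of age, the pair of groups with the longest repeats in the series. The 16 libraries, 8 per genotype, were chosen by their labelled genotype and age out of 96 in the whole series. Each group held 4 females and 4 males. All 16 mice were heterozygous, with 1 unaltered mouse Htt allele beside 1 knock-in allele that carries a human Htt exon with about 92 or about 140 CAG repeats. The strain label is C57BL/6, and the study's methods name the alleles Htt tm4Mem for Q92 and Htt tm1Mfc for Q140, expressed from the mouse's own Htt locus. Neither group has wild-type (WT) littermates in the series, so repeat length, allele and line cannot be told apart in this comparison. The labels say that these mice were caged with their own genotype while the study's methods describe mixed cages, which was not settled, so cage may differ with genotype as well. Replicate mice are separate animals. Other mice of the series are used below: the same genotypes at 10 months, and Q20, Q50 and WT mice at both ages. Q20 and Q50 mice are heterozygous knock-ins too, named by their repeat number, and the WT mice are littermates of those lines. The study counts Q20 mice as controls beside WT, although they carry a knock-in allele.

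An expanded CAG repeat in the huntingtin gene causes Huntington's disease, and knock-in mice carry the expansion within the mouse gene. The disease is marked by loss of striatal and cortical neurons, and longer repeats are known to bring earlier onset in people. MicroRNAs are short RNAs that are cut from a hairpin (the stem-loop), are loaded into Argonaute proteins and pair through their seed with messenger RNAs, which lowers the stability or translation of those messages. A single microRNA can pair with many messages, and several neuronal microRNAs act in differentiation and synaptic function. The comparison here asks whether the cortex of mice with the longer of these expansions held a different set of microRNA levels from the cortex of mice with the shorter one. The tables give one value per stem-loop and name it by its miRBase accession alone. They do not pair accessions with microRNA names, so no name, function, family, cell type marker or sequence is attached to a value below, and the tissue label could not be checked against marker microRNAs.

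The libraries of the 2 groups were of similar depth. The library total was 6250670 ± 705664 counts (SD, n = 8, from 4797430 to 7218580) in Q140 and 6464140 ± 312018 (SD, n = 8, from 5893540 to 6795000) in Q92 (two-sided exact permutation p = 0.492). The number of stem-loops with a count was 684.6 ± 10.6 and 691 ± 11.95 (SD, exact permutation p = 0.282). The 10 most abundant stem-loops took 54.1 ± 0.491% of the counts in Q140 and 54.9 ± 0.924% in Q92 (SD, exact permutation p = 0.0684). All libraries of 6 months were put through a connectivity screen of the kind the study describes, with a limit of -5. The Q92 male M1 was the only library of the 2 groups below that limit (robust Z = -6.06). In other groups WT(Q50 line) F2 (-11.94) and F4 (-8.40), WT(Q20 line) M4 (-5.37) and Q50 M1 (-5.24) were below it too. The Q92 male M1 also had the highest median distance to the other 15 libraries of the 2 groups, at 12.3 on the log2 scale. It was left out of the fits, which used 8 Q140 and 7 Q92 libraries.

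No stem-loop passed the test between Q140 and Q92 at 6 months. Of 442 stem-loops with enough counts, 0 were called at a false discovery rate (FDR) of 0.05 by the edgeR quasi-likelihood test, which is 0% of those tested, and the smallest FDR was 0.198. At an unadjusted p under 0.05 there were 46 (10.4%), of which 25 (5.66%) were higher and 21 (4.75%) lower in Q140. With the Q92 male M1 kept, 0 of 434 were called and 51 had an unadjusted p under 0.05. limma-voom called 0 with 46 under that unadjusted threshold. DESeq2 with outlying values replaced, the kind of test the study used, called 4 (0.905%), 2 in each direction. Without replacement DESeq2 called 3 (0.679%). With the Q92 male M1 kept as well it called 13 of 434 (3.0%), 7 higher and 6 lower in Q140. The count thus changed when this 1 library was kept, and DESeq2 was not run with other libraries left out. Levels are given in CPM, counts per 1000000 counts of the library. The median size of the Q140 minus Q92 difference over the 442 stem-loops was 0.0664 on the log2 scale, and the largest was 1.04. In the same fit the sex term gave 0 calls and a median size of 0.0755, and the term for the L field, a label of unstated meaning that was used as a batch, gave 4 calls and a median size of 0.0847. The genotype difference was thus in the same range as those of sex and of the L field, and the 3 sizes were not tested against each other.

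**Figure D1:**
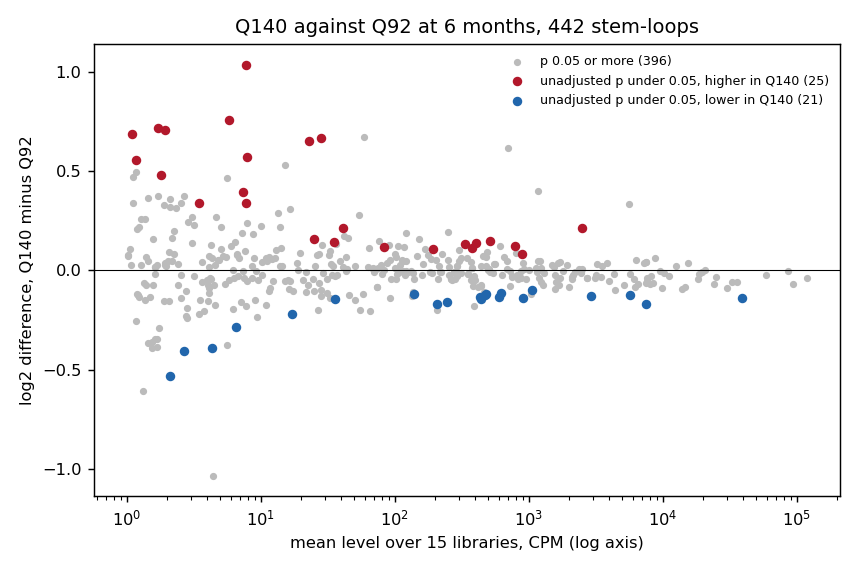
Each point is one of 442 stem-loops, with its mean level over 15 libraries in CPM (log axis) on the x axis and the fitted log2 difference, Q140 minus Q92 at 6 months, on the y axis. Colored points have an unadjusted edgeR p under 0.05 (25 higher and 21 lower in Q140), none passed FDR 0.05, and the differences narrow as the level rises.

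Pairs of mice of different genotype were no farther apart than pairs of the same genotype. Over the 442 stem-loops the Euclidean distance between log2 profiles had a median of 10.2 within Q140 (28 pairs), 10.9 within Q92 (28 pairs) and 10.2 between the groups (64 pairs). Without the Q92 male M1 the median within Q92 was 10.3. These pairs share libraries, so the distances are given as a description. In a component analysis of the 16 libraries the first component held 22.2% of the variance, and sex accounted for 29.7% of it while genotype accounted for 1.74e-05%. Genotype took 10.5% of the second component (14.1% of the variance) and 15.4% of the third (10.4% of the variance). In no stem-loop of the 442 did all 8 Q140 libraries lie above or below all 8 Q92 libraries (0%).

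The precision of the comparison depended on abundance. For the 86 stem-loops with at least 1000 CPM the median half-width of the 95% confidence interval was 0.101 on the log2 scale, and the whole interval lay within 0.5 of no difference for 84 of them (97.7%). For the 121 stem-loops between 100 and 1000 CPM these values were 0.110 and 118 (97.5%), and for the 96 between 10 and 100 CPM they were 0.176 and 82 (85.4%). Abundant stem-loops were thus measured closely enough that a difference of 0.5 or more lay outside the interval for nearly all of them. Below 10 CPM the half-width was 0.433, with 50 of 139 (35.97%) inside 0.5 and 119 (85.6%) inside 1. Over all levels 334 of 442 intervals (75.6%) lay inside 0.5 and 411 (93.0%) inside 1. The widths given per class are medians, and they are not adjusted for the number of stem-loops tested.

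The replicate spread was of like size in the 2 groups. Over the 15 fitted libraries, without the Q92 male M1, the median SD of log2 levels was 0.161 in Q140 and 0.147 in Q92. The SD was larger in Q140 for 202 of 442 stem-loops. With that male kept, the median distance between profiles was 10.9 within Q92 and 10.2 within Q140. The median size of the difference between genotypes was 0.0400 in the class of at least 1000 CPM, 0.0438 from 100 to 1000 CPM, 0.0794 from 10 to 100 CPM and 0.142 below 10 CPM. Direction by class hung on the scaling. Of the 86 stem-loops with at least 1000 CPM, 25 (29.1%) were higher in Q140 with TMM factors, 28 (32.6%) with DESeq2 size factors and 50 (58.1%) by plain library totals. From 100 to 1000 CPM the share turned too, from 56 of 121 (46.3%) with TMM factors to 89 (73.6%) by totals. From 10 to 100 CPM it moved from 55.2% to 71.9%, and below 10 CPM from 55.4% to 62.6%. No direction is read for any class.

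The 46 stem-loops of unadjusted p under 0.05 differed by a median size of 0.159 on the log2 scale (0.0833 to 1.04). The 25 higher in Q140 had a median level of 25.2 CPM and a median size of 0.340, and the 21 lower had 442 CPM and 0.140. By abundance, 1 higher and 5 lower were among the 86 of at least 1000 CPM, 7 and 10 among the 121 below that, 6 and 2 among the next 96, and 11 and 4 among the 139 under 10 CPM. These splits rest on the TMM factors, so no direction by level is read from them either. For 9 of the 46 the deposited counts were fractional in most libraries, beside 124 of 442 over all stem-loops tested. Reads of such stem-loops may be shared with near-identical loci, and their values are uncertain. DESeq2 gave the same sign for 46 of 46, from the same counts, beside 426 of 442 over all stem-loops tested.

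Among the stem-loops higher in Q140, the smallest p belonged to MI0000729. Its level in Q140 was 23.1 CPM at the lowest, 29.8 at the median and 65.7 at the highest (8 libraries), and in Q92 it was 15.7, 20.4 and 25.5 CPM (8 libraries). The groups overlapped: 5 of 8 Q140 libraries lay above every Q92 library and 8 of 8 above the Q92 median. Over the 15 libraries of the fit the mean was 34.4 ± 13.8 CPM (SD) in Q140 and 21.2 ± 3.30 CPM in Q92, a difference of 0.67 ± 0.17 (SE) on the log2 scale with a 95% interval from 0.31 to 1.02 (edgeR FDR = 0.198). DESeq2 with replacement called it (FDR = 0.0152), and edgeR called it when the Q92 male M3, the highest Q92 library at 25.5 CPM, was left out (0.80 ± 0.14, FDR = 0.0125). The 4 Q140 libraries with the highest levels were the 4 females, at 33.9 to 65.7 CPM.

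MI0000729 lay farther apart in females than in males. Females had 45.8 ± 14.8 CPM in Q140 and 21.7 ± 1.92 CPM in Q92 (SD, n = 4 each), and males had 24.4 ± 1.29 and 18.9 ± 4.56 CPM (SD, n = 4 each). Fitted within females the difference was 0.91 ± 0.19 (edgeR FDR = 0.117) and within males 0.29 ± 0.15 (edgeR FDR = 0.993). The term for the difference between the sexes was -0.70 (edgeR FDR = 0.988) and did not pass. By L field the difference was 0.37 ± 0.14 in L1 (edgeR FDR = 0.998) and 0.91 ± 0.22 in L2 (edgeR FDR = 0.355). Sex and L field were not balanced in Q140, where 3 of 4 females but 1 of 4 males were in L2, against 2 of 4 of each sex in Q92. Their parts in the difference were not tested apart. Counts of this stem-loop were fractional, so reads may be shared with another locus.

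MI0018008, also higher in Q140, was a stem-loop of low abundance. Its level was 1.21, 2.22 and 2.94 CPM (lowest, median and highest of 8) in Q140 and 0.747, 1.27 and 2.03 CPM in Q92, which rests on 8 to 19 counts per Q140 library and 5 to 13 per Q92 library. The groups overlapped, with 5 of 8 Q140 libraries above every Q92 library and 7 of 8 above the Q92 median. The fitted difference was 0.72 ± 0.20 with an interval from 0.30 to 1.14 (edgeR FDR = 0.198). It was 0.41 ± 0.32 within females and 0.98 ± 0.31 within males, with edgeR FDR = 0.725 and 0.993.

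Among the stem-loops lower in Q140, MI0000159 had the smallest p. Its level was 186, 194 and 220.1 CPM (lowest, median and highest of 8) in Q140 and 205, 219 and 238 CPM in Q92. The groups overlapped, and 6 of 8 Q140 libraries lay below every Q92 library while 1 lay above the Q92 median. The fitted difference was -0.17 ± 0.04 with an interval from -0.26 to -0.07 (edgeR FDR = 0.198). It was -0.16 ± 0.07 in L1 and -0.17 ± 0.08 in L2, -0.20 ± 0.07 in females and -0.14 ± 0.08 in males. The difference was small and passed in neither sex and in neither L field value. These splits reuse the libraries by which MI0000159 was picked, so their shared sign adds no support. By DESeq2 the call changed with the libraries used. Without the Q92 male M1 the FDR was 0.0593 with replacement and 0.0570 without. With it kept and no replacement MI0000159 was called at -0.18 (DESeq2 FDR = 0.0122). DESeq2 was not run with other libraries left out. Its counts were fractional too.

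MI0014027 was the most abundant of the 4 stem-loops named. Its level was 2696, 2816 and 2972 CPM (lowest, median and highest of 8) in Q140 and 2750.1, 3046 and 3166 CPM in Q92. All 8 Q140 libraries lay below the Q92 median, but only 2 lay below every Q92 library. The mean of the fitted libraries was 2783 ± 71.3 CPM in Q140 and 3043 ± 126 CPM in Q92 (SD), a difference of -0.13 ± 0.04 with an interval from -0.21 to -0.06 (edgeR FDR = 0.198). DESeq2 with replacement called it at -0.13 (FDR = 0.0127). The remaining pair of DESeq2 calls was a stem-loop with a mean of 605 CPM that was lower in Q140 by DESeq2 (edgeR -0.13 ± 0.04, DESeq2 FDR = 0.0311) and one with a mean of 23.1 CPM that was higher (edgeR 0.65 ± 0.19, DESeq2 FDR = 0.0426).

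**Figure D2:**
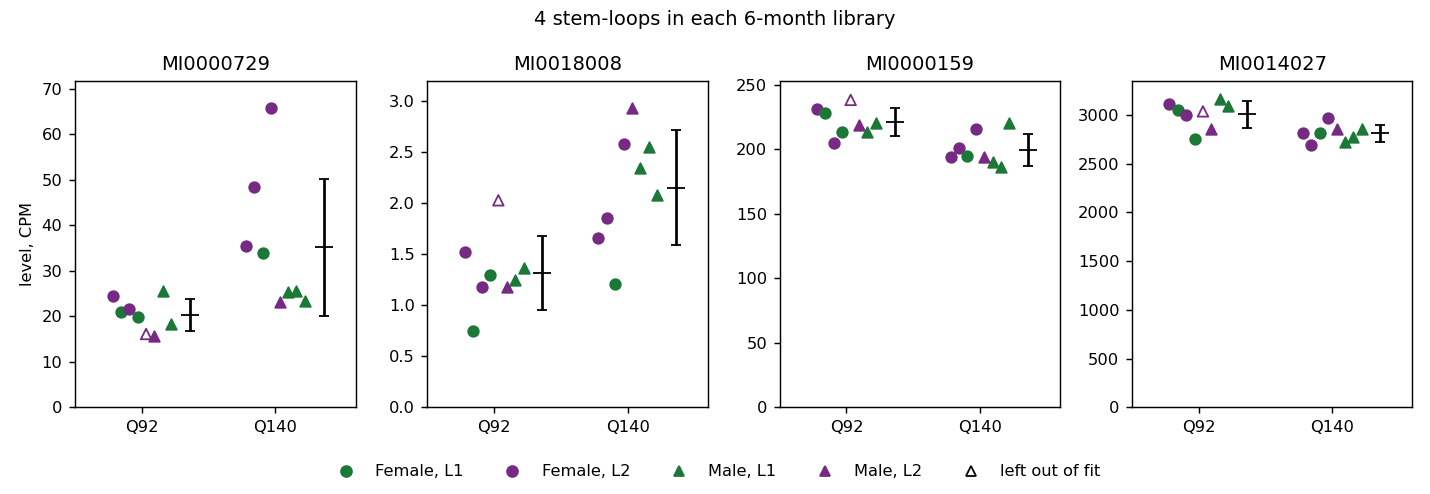
Levels in CPM (axes from 0) of the 2 stem-loops of smallest p in each direction, one point per 6-month library, with shape for sex, color for the L field and an open symbol for the Q92 male left out of the fits; bars are mean ± SD over 8 libraries. Q92 and Q140 overlap in each panel, and the 4 highest Q140 points of MI0000729 (33.9 to 65.7 CPM) are females.

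The same stem-loops in the other 6-month groups show where the pair lies in the series, with WT mice named by their line. MI0000729 had 58.9 ± 11.02 CPM in WT(Q20 line), 50.1 ± 19.8 CPM in WT(Q50 line), 44.5 ± 20.5 in Q20 and 45.8 ± 17.6 in Q50 (SD, n = 8 each). Over all 8 libraries it had 35.1 ± 15.04 in Q140 and 20.3 ± 3.56 in Q92, the 2 lowest means at this age, and neighbors other than Q92 lay within an SD of each other. At 10 months the lowest mean of MI0000729 was in WT(Q20 line), at 21.3 ± 3.97 CPM, beside 45.3 in Q140 and 38.2 in Q92. MI0018008 was highest in Q140, at 2.16 ± 0.564 CPM, with means from 0.997 to 1.43 CPM in the other 5 groups. MI0000159 was highest in Q92, at 221 ± 11.01 CPM, with means from 195.2 to 213 CPM elsewhere. MI0014027 had 3008 ± 138 CPM in Q92, beside 3029 ± 230.3 in WT(Q20 line) and 3038 ± 231 in Q20, and 2815 ± 86.4 in Q140, beside 2747 ± 160 in WT(Q50 line) and 2717 ± 200.045 in Q50. The means of the WT groups and Q20 thus ran from 2747 to 3038 CPM, and those of Q92 and Q140 lay inside that range. These differences were not tested.

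**Figure D3:**
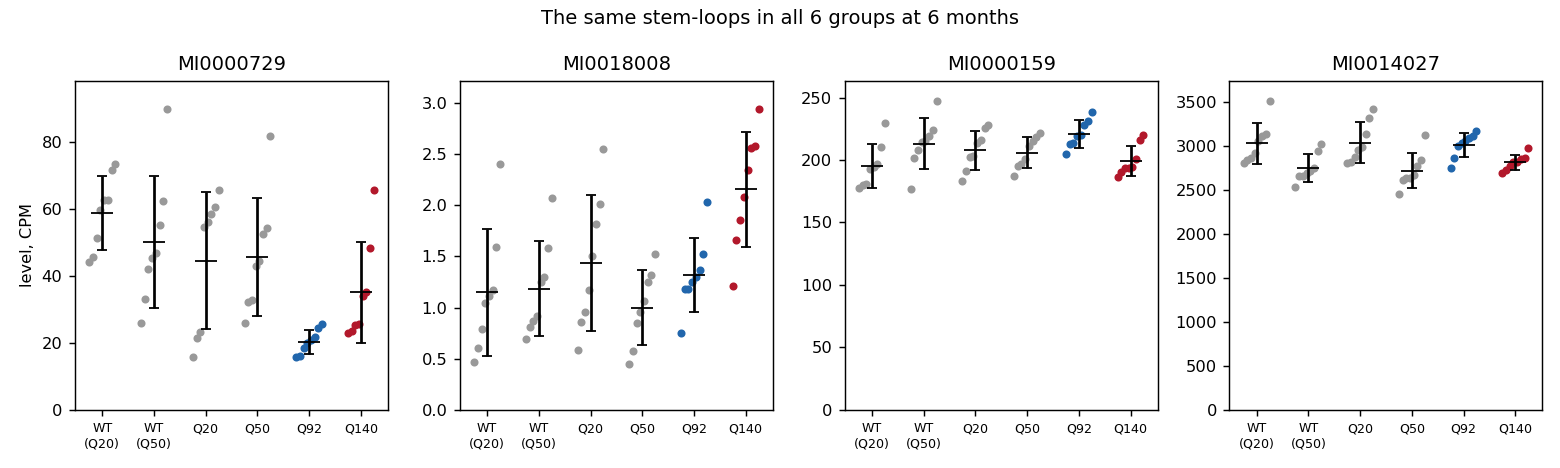
The same 4 stem-loops in the 6 groups of 6 months, in CPM (axes from 0), 8 libraries per group in order of level, with mean ± SD. Q92 (blue) and Q140 (red) have the lowest means of MI0000729 (20.3 and 35.1 CPM), and their means of MI0014027 (3008 and 2815 CPM) lie inside the range of the WT and Q20 means, 2747 to 3038 CPM.

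As a gauge of how far groups of this series lie apart with no knock-in allele, WT mice of the Q50 line were set against WT mice of the Q20 line at 6 months with the same test. There 0 of 435 stem-loops were called by edgeR, 50 had an unadjusted p under 0.05, and the median size was 0.0962 on the log2 scale over 13 libraries. The median size between Q140 and Q92, 0.0664 over 15 libraries, was no larger. Such a size also depends on the number and spread of the libraries. The fitted WT libraries reached 18507 CPM (Q20 line) and 10632 CPM (Q50 line) of a co-varying set described below. The Q92 and Q140 libraries reached at most 1168 CPM of it. The size of 0.0962 is thus not read as a distance between lines alone. The 2 comparisons share no library and were not tested against each other.

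A set of 8 stem-loops that rose and fell together in the controls carried no difference between Q140 and Q92 that passed. The set was taken from the first component of the 48 control libraries (WT and Q20 at both ages), which held 31.9% of their variance, without use of the Q92 and Q140 libraries. Its summed level at 6 months was 396, 714 and 1168 CPM (lowest, median and highest of 8) in Q140 and 280, 576 and 1136 CPM in Q92. In the other 4 groups of this age the highest library had 18507 to 63183 CPM. Both groups thus lay in the low part of the range, and neither held a library with a high level. All 8 members were tested, 3 were higher and 5 lower in Q140, 0 had an unadjusted p under 0.05 (10.4% of all stem-loops tested did), and the median difference was -0.14 on the log2 scale (-0.23 to 0.11, lowest edgeR FDR 0.816). None of the 46 stem-loops of unadjusted p under 0.05 belonged to the set. With its level as a covariate 0 of 434 other stem-loops were called and 43 had an unadjusted p under 0.05.

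**Figure D4:**
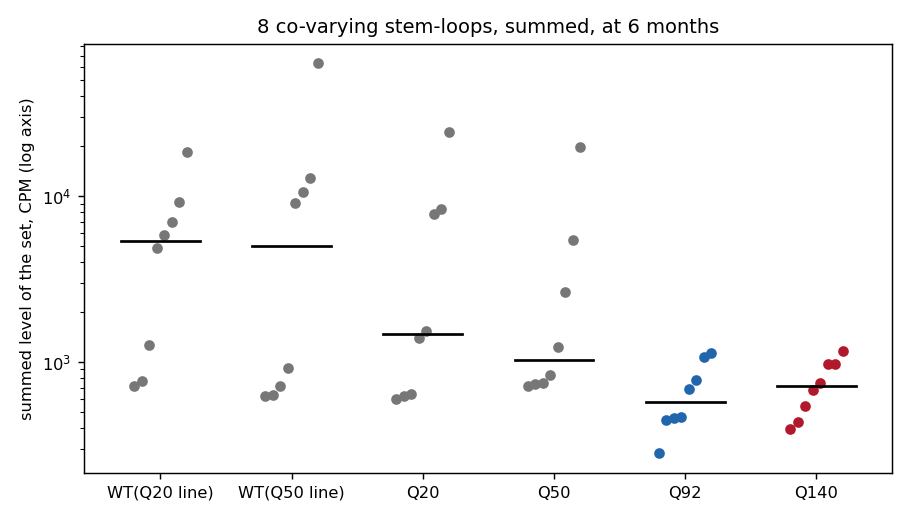
Summed level of the 8 co-varying stem-loops in each 6-month library, in CPM (log axis), with a bar at the group median. The 16 Q92 and Q140 libraries lie between 280 and 1168 CPM, and the highest library of each other group lies between 18507 and 63183 CPM.

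The second question was whether the contrast differed between males and females. The genotype by sex term gave 0 calls of 442 (0%, edgeR, smallest FDR 0.638), with 16 at an unadjusted p under 0.05 (3.62%). DESeq2 also called 0, and with the Q92 male M1 kept edgeR called 0 of 445 with 16 at an unadjusted p under 0.05. Within females alone 0 of 435 were called, 32 had an unadjusted p under 0.05 and the smallest FDR was 0.0720, and within males alone 0 of 436 were called and 9 had an unadjusted p under 0.05. The same split by L field gave 0 of 437 with 14 in L1 and 0 of 433 with 34 in L2.

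The third question was whether the contrast was the same at 10 months, measured in other mice. Of the 46 stem-loops of unadjusted p under 0.05 at 6 months, 44 were also tested at 10 months, and 29 of these (65.9%) had the same sign. Over all stem-loops tested at both ages the share was 243 of 431 (56.4%). At an unadjusted p under 0.05 with the same sign at 10 months there were 4 of the 44, and 0 with the opposite sign, beside 19 and 7 over all 431. The 10-month difference was 0.75 ± 0.49 for MI0000729 (edgeR FDR = 0.710), -0.02 ± 0.44 for MI0018008, -0.18 ± 0.15 for MI0000159 and -0.14 ± 0.07 for MI0014027 (edgeR FDR = 0.661). The 10-month fit used 13 libraries, since the screen left out the Q92 females F2, F3 and F4. In that fit the value was close to that at 6 months for 3 of the 4, with a larger SE. MI0018008 had no difference at 10 months beyond its SE. Over all 8 libraries per group at 10 months, MI0000729 had 45.3 ± 14.9 CPM in Q140 and 38.2 ± 21.8 CPM in Q92 (SD). MI0000159 had 239 ± 34.1 and 251 ± 52.9 CPM, and MI0014027 had 2926 ± 185 and 3137 ± 287 CPM. The 10-month difference was not fitted with those females kept.

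**Figure D5:**
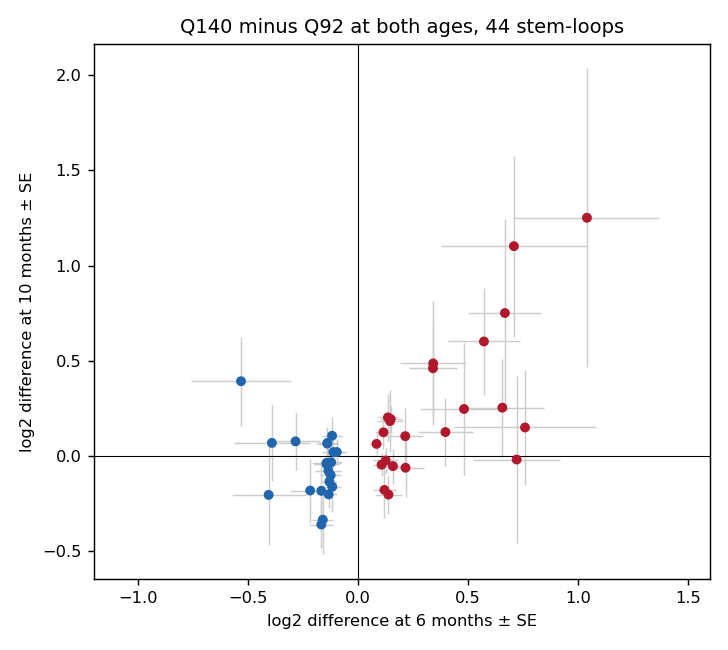
Log2 difference, Q140 minus Q92, at 6 months (x axis) and at 10 months (y axis) with SE bars for the 44 stem-loops of unadjusted p under 0.05 at 6 months that were tested at both ages. Red points were higher and blue points lower in Q140 at 6 months, and 29 of the 44 have the same sign at 10 months. The 10-month fit left out the Q92 females F2, F3 and F4.

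The test of the difference between the ages gave 0 calls of 456 (0%, edgeR, smallest FDR 0.0960), with 33 at an unadjusted p under 0.05 (7.24%). This fit left out 3 Q92 females of 10 months (F2, F3 and F4) by the same screen. With all libraries kept 9 were called, all with a lower Q140 minus Q92 difference at 10 months. Of the 9, 8 were the members of the co-varying set. In Q92 the median summed level of the set was 576 CPM at 6 months and 11838 CPM at 10 months. In Q140 it was 714 and 651 CPM. The 3 Q92 females left out had 31896 to 49976 CPM of the set, against at most 2585 CPM in any 10-month Q140 library. Of the 10-month Q92 libraries kept, M3 had 18439 CPM and M4 had 5238 CPM, while F1, M1 and M2 had 494 to 2517 CPM. The screen thus did not take every library with a high level of the set out of this fit. Fitted alone, the 10-month libraries gave 1 call of 439 (0.228%, 26 at an unadjusted p under 0.05, 5.92%), a stem-loop lower in Q140 at -0.71 ± 0.13 (edgeR FDR = 0.0375). At 6 months its difference was 0.16 ± 0.15 (edgeR FDR = 0.837). The term for the difference between the ages was -0.88 (edgeR FDR = 0.0960), so it did not pass in the main edgeR fit. Some other edgeR settings, given at the end, called 1 stem-loop for that term, which is not identified here. DESeq2 called 1 stem-loop for that term, with a lower Q140 minus Q92 difference at 10 months.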

How the data were processed

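Small RNA of mouse cortex was sequenced as single-end 36-base reads. According to the study's methods, reads were aligned to mm10 with STAR at default settings and counted with HTSeq, and the submitters' processing notes name CASAVA 1.8.2. The sources used here give no other version. The authors deposited estimated counts per stem-loop and library, not normalized, some fractional, with the handling of shared reads not stated. The deposited FPKM values, made by the authors from the same counts, served only to obtain stem-loop lengths and entered no test. Every column was matched to 1 sample.

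Here counts were rounded to whole numbers and fitted in edgeR 4.0.16 (R 4.3.3; TMM, filterByExpr, robust quasi-likelihood test) with sex, L field and genotype, Benjamini-Hochberg adjustment over all stem-loops and FDR 0.05. Libraries were screened by network connectivity over all 48 of one age (robust Z under -5). DESeq2 1.42.0 and limma-voom (limma 3.58.1) were alternatives. The CPM of a single library uses its total, and means over fitted libraries and abundance classes use TMM-scaled totals. The spread of log2 levels used a prior count of 2. Totals and detected stem-loops were compared by exact permutation tests. Scripts were tested on simulated data. No 2 libraries of a group agreed within sampling noise.

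Named stem-loops are the 2 of smallest p in each direction. The rule allowed more if names could be paired with accessions, which no table here did, so the microRNA lists and cell type markers that were prepared could not be applied. The groups, lists and tests were chosen with earlier results of these data known.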

Additional observations from a re-analysis of the deposited data

How the results depend on the processing

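The count of calls between Q140 and Q92 at 6 months was 0 by edgeR with all libraries kept, DESeq2 size factors, no filter (0 of 904, 59 at an unadjusted p under 0.05), a filter at a mean of 10 CPM (0 of 303), no L field term, all 6 groups in 1 fit, each L field value, and each sex, and by limma-voom, with 9 to 59 at that unadjusted threshold. DESeq2 called 4 with outlying values replaced, 3 without replacement and, in an alternative added after the data were seen, 13 with no replacement and all libraries kept (7 higher, 6 lower, 3 of the 4 named stem-loops, none of the co-varying set). Leaving out each fitted library in turn, by edgeR, gave 0 to 1 call, the 1 being MI0000729 without the Q92 male M3. The cause of these changes was not tested. The test between ages gave 9 with all libraries kept, 1 with the stricter filter (smallest FDR 0.0481), 1 with DESeq2, and 0 to 1 when each library was left out, the 1 without the Q140 6-month male M4. The test between sexes gave 0 in all 21 alternatives.

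With the replicate number as a block the count was 0 of 471, with 40 at an unadjusted p under 0.05 (smallest FDR 0.359). Same-numbered libraries shared only a number: their deviations correlated at -0.109 to 0.407 over 7 pairs, 4 of them over 0.1, and 2 of 7 correlated best with their own number.

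Each named stem-loop kept its sign in every alternative run, with a log2 difference of 0.29 to 0.91 for MI0000729 (FDR 0.00329 to 0.998), 0.41 to 0.98 for MI0018008 (FDR 0.123 to 0.998), -0.20 to -0.14 for MI0000159 (FDR 0.0122 to 0.998) and -0.16 to -0.11 for MI0014027 (FDR 0.00174 to 0.998). MI0018008 was below the stricter filter and has no value there. The named stem-loops were picked by smallest p in the main fit. The alternatives refit largely the same libraries or parts of them, so a kept sign adds no support. The difference in library totals (-351738 to -5859 counts) and in detected stem-loops (-9.0 to -3.95) stayed of one sign. The planned covariate from a list of named microRNAs was replaced by the level of the co-varying set, since names could not be paired.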
